A study of Mus musculus with 3 samples.

Results

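Mature B cells of the mouse small intestine were examined in 3 single-cell RNA libraries, 1 for each of duodenum, jejunum and ileum. They numbered 480 of the 27235 barcodes deposited as cells, of which 30 were duodenal, 19 jejunal and 431 ileal. The mice were 12-week-old male C57BL/6N animals of genotype WT on normal chow, and the labels name no treatment. Cells of 3 mice were pooled before sorting, so each segment is a single library and no segment has a replicate. The epithelium was shaken off in EDTA and DTT, living cells were sorted as propidium iodide negative, and the labelled cell type is intestinal epithelial cells, so that the B cells are lymphocytes that came along with the epithelial fraction and carry no label of their own.

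The cells were chosen by their own transcript counts. A transcript molecule is counted once through its barcode, the unique molecular identifier or UMI. A member had 800 to 50000 UMIs, at most 40% of them mitochondrial, at least 3 UMIs of Cd79a and Cd79b together and at least 1 UMI of Ighm, Ighd, Ebf1 or Bank1. It had no Cd3e UMI, fewer than 50 Jchain UMIs per 10000 and less than 2% of its UMIs from Apoa1, Apoa4, Fabp1, Rbp2 and Alpi. Of these genes, Cd79a and Cd79b encode the signalling chains of the B cell receptor, Ebf1 a factor of B cell identity and Bank1 an adaptor, whereas Cd3e marks T cells, Jchain plasma cells and the last 5 enterocytes.

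A mature B cell carries membrane IgM and IgD as its antigen receptor and waits for antigen in follicles, as those of the Peyer's patches and the isolated follicles of the gut wall. It takes up antigen through the receptor and shows peptides on MHC class II to helper T cells. In the germinal centre, activated B cells divide, mutate their receptor genes and switch from IgM to other classes, in the gut mostly to IgA, before some of them become plasma cells that secrete antibody in bulk.

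Levels state how many of every 10000 UMIs summed over cells belong to a gene, and come in the order duodenum, jejunum, ileum, and shares of cells with exact 95% intervals, which cover counting error only. The genes that chose the cells are given as a description. Cd79a had 14.2, 21.8 and 20.6 UMIs per 10000 in B cells of the 3 libraries, Ebf1 14.4, 13.0 and 11.2, and Bank1 2.64, 4.51 and 2.88. Ighd, which unswitched B cells express beside Ighm, had 3.37, 4.61 and 2.18. At the limits, 22 cells held exactly 3 Cd79 UMIs and 26 otherwise fitting barcodes held 2, 22 barcodes were kept out by a Cd3e UMI alone, and 7 cells lay at 1.5 to 2% of enterocyte UMIs against 6 barcodes at 2 to 2.5%.

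B cells made up 0.701% (95% interval 0.473 to 0.999) of the 4281 barcodes of the duodenum that passed the limits on UMIs and mitochondrial share, 0.434% (0.261 to 0.677) of the 4380 jejunal ones and 5.31% (4.83 to 5.82) of the 8113 ileal ones. The share of the ileum lay above both others, whose intervals overlapped. These limits kept 45.1%, 53.8% and 84.6% of the barcodes of the 3 libraries. With at most 20% mitochondrial UMIs the B cell shares were 2.21%, 1.51% and 6.1%, and with 1 library per segment a segment and its library cannot be told apart. B cells held a median of 2771.5, 2799 and 3780 UMIs in the same order, and 136440, 95391 and 2733252 UMIs in all. Of the 19 jejunal B cells 2 held 50545 of the UMIs (53.0%), so jejunal levels, which are summed over cells, are mostly theirs. Between pairs of libraries 20 to 28 barcodes were shared, none of them a B cell in both.

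T cells, IgA plasma cells and the joint class of macrophages and dendritic cells of the same libraries were chosen by UMIs in the same way and served for comparison. T cells numbered 37, 100 and 915 in the 3 libraries, plasma cells 36, 25 and 13, and macrophages and dendritic cells 9, 19 and 90. UMIs were summed per library and class and compared within libraries with the quasi-likelihood test of edgeR, with p-values adjusted after Benjamini and Hochberg. The 9 macrophages and dendritic cells of the duodenum were too few for a sum, so that this comparison rests on 2 libraries. The libraries come from the same pooled mice, and p-values measure the spread between the segments' libraries only. Genes used to choose any class were left out of the test.

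UMIs of other cells were present in the B cells. Of 18 enterocyte markers all 18 were counted in B cells of each library, at a summed 69.9, 34.0 and 81.8 per 10000, beside 97.0, 58.4 and 85.7 in T cells. Of 20 T cell markers 5, 5 and 18 were found at a summed 1.47, 1.89 and 3.3 per 10000, against 369 to 462 in T cells, and 63 ileal B cells held a T cell receptor UMI, at most 3 in a cell. Macrophage UMIs were concentrated in few cells. A single B cell of the duodenum held all 868 UMIs of C1qa, C1qb, C1qc, Csf1r and Lyz2 found there, and 3 of the ileum held 854 of 867. Without these 4 B cells, an alternative added after the values were seen, 808 of 7211 genes were higher (11.2%) and 861 lower (11.9%) than in T cells.

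Markers of mature B cells that did not choose the cells were then read. Fcmr, the Fc receptor for IgM, was at 3.22, 4.61 and 4.32 UMIs per 10000 in B cells of the 3 libraries and at 0, 0 and 0.0168 in T cells. A Fcmr UMI was found in 76.9% (72.8 to 80.6) of 480 B cells and in 0.665% (0.268 to 1.37) of 1052 T cells, at median depths of 3728.5 and 4005 UMIs. Thinned at random to 800 UMIs per cell the Fcmr shares were 31.5% and 0.0951%. The 2 cell types lay far apart in every library and at equal depth.

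Ms4a1, which encodes CD20, was counted at 7.26, 9.33 and 9.55 UMIs per 10000 in B cells and at 0, 0 and 0.00958 in T cells. Its log2 fold change was 10.48 ± 0.75 (SE) with an adjusted p of 2.7e-09 in edgeR's test, higher in 3 of 3 libraries. Cd22, a sialic acid-binding brake of the receptor, was at 2.35, 0.943 and 1.12 in B cells and had no UMI in T cells, which makes it at least 184-fold higher against a floor of 3 UMIs over all T cells. Such bounds between classes are the smaller of those from plain and from TMM-scaled UMI totals. For T cells, 0 of 1052 allows a share of up to 0.285% with a Cd22 UMI, taken as 3 cells in the total. Pax5, the factor that holds B cell identity, was at 3.0, 2.73 and 1.8 against 0, 0 and 0.0144, a call that DESeq2 did not make (log2 fold change 8.01). B cells and T cells did not overlap for any of these genes, and the share of all genes tested without overlap is not given here.

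Of 10 mature B cell markers, 6 did not choose cells and were tested, and all 6, among them Fcmr, Ms4a1, Cd22, Pax5 and Fcer2a, were higher in B cells than in T cells, where 789 of 7131 genes tested were (11.1%). Their median log2 fold change was 7.93, or 7.58 with genes at 0 in T cells set to their bound, beside a median of -0.04 over all genes tested. Many of these genes passed the filter on low counts only through the B cells, so the count describes them and supports nothing further. In the opposite direction 747 genes (10.5%) were lower in B cells. Of 17 T cell markers tested 16 were lower, among them Trdc, a constant gene of the gamma-delta receptor, at 0, 0 and 0.00366 in B cells against 6.38, 8.58 and 7.1 in T cells.

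**Figure D1:**
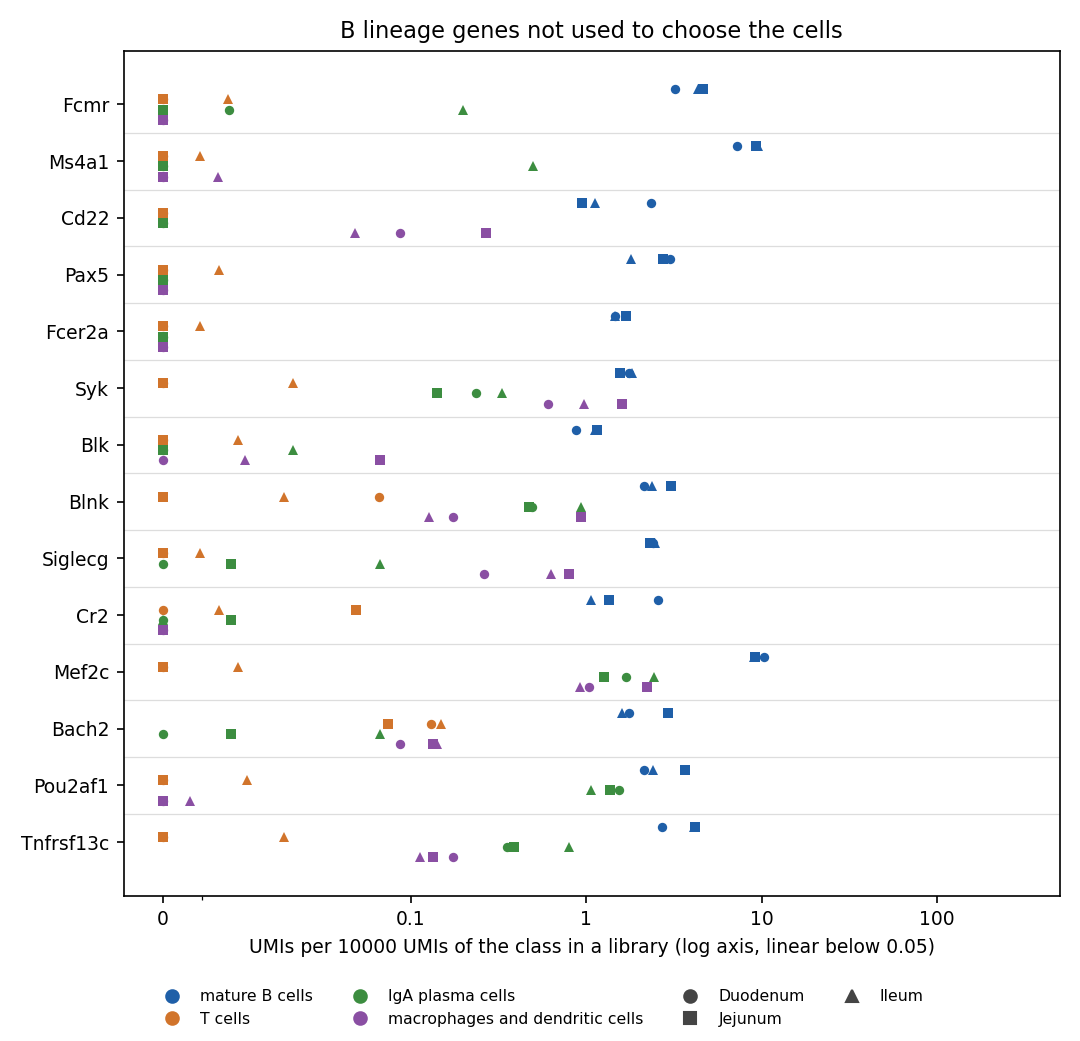
UMIs per 10000 UMIs of the class (x axis, logarithmic and linear below 0.05) of 14 B lineage genes, with a colour for each class and a symbol for each library. For Fcmr, Ms4a1 and Pax5 the mature B cells (blue) of every library lie at 1.8 or above and the T cells (orange) at 0.0168 or below. The duodenal macrophages and dendritic cells, 9 cells, are drawn but were not tested.

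The relay behind the B cell receptor was higher in B cells than in T cells for 9 of 12 genes tested, and 1 gene, Pik3cd, was lower. Syk, the kinase that docks on the receptor, was at 1.76, 1.57 and 1.83 UMIs per 10000 in B cells and at 0, 0 and 0.0335 in T cells. Its log2 fold change was 5.98 ± 0.41 (SE; adjusted p = 1.8e-09, edgeR), without overlap of the classes. Blnk, the scaffold that Syk phosphorylates, was at 2.13, 3.04 and 2.38 against 0.0657, 0 and 0.0311, a log2 fold change of 6.38 ± 0.52 (adjusted p = 1.4e-08, edgeR). Plcg2, the phospholipase downstream, differed by less, with 1.32, 1.26 and 1.24 in B cells and 0.592, 0.496 and 0.35 in T cells. Lyn, the kinase that starts and limits the signal, had a log2 fold change of 2.99 ± 0.27. Pik3cd, the lymphocyte PI3 kinase, was at 1.1, 0.943 and 0.446 in B cells and 1.18, 2.13 and 1.19 in T cells (log2 fold change -0.99 ± 0.27, adjusted p = 0.0096, edgeR), and this call was lost with DESeq2 (log2 fold change -0.92) without the library as a block (-1.03) and without the ileum (-0.62).

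Against plasma cells, 7 of the 12 receptor signalling genes were higher in B cells and none was lower, where 827 of 7131 genes (11.6%) were higher and 814 (11.4%) lower. Syk was at 0.236, 0.141 and 0.333 UMIs per 10000 in plasma cells of the 3 libraries, a log2 fold change of 1.28 ± 0.35 (adjusted p = 0.01, edgeR) in favour of B cells, lost without the duodenum (1.31). Blnk, at 0.489, 0.476 and 0.932 in plasma cells, was not called (log2 fold change 0.38 ± 0.37, adjusted p = 0.51, edgeR). Against macrophages and dendritic cells 3 of 12 were higher and 1 lower, where 630 of 7131 genes (8.83%) were higher and 1030 (14.4%) lower. Syk (log2 fold change 0.39 ± 0.32, adjusted p = 0.44) and Lyn (-0.35 ± 0.26, adjusted p = 0.39) were not called there by edgeR, and their levels overlapped between the classes.

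Immunoglobulin UMIs weigh on every level in plasma cells. They made up 62.5%, 68.3% and 62.0% of the UMIs of plasma cells in the 3 libraries, against 0.935%, 1.15% and 1.08% in B cells and at most 0.0572% in T cells. The fit corrects for this by trimmed mean (TMM) scaling, after which the median log2 fold change of all genes against plasma cells was 0.19, while totals alone gave 1.86. Differences from plasma cells are relative to these medians. Without TMM scaling 5343 genes were higher in B cells (74.9% of those tested) and 206 lower (2.89%), and of the B cell lists 12 of 12 receptor signalling genes, 15 of 16 co-receptors, 16 of 17 transcription factors and 11 of 11 MHC class II genes were higher, with none lower.

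Co-receptors and brakes of the B cell receptor were higher in B cells than in T cells for 15 of 16 genes tested, with no call for Ptpn6, which encodes the phosphatase SHP-1. Without the 4 B cells that held macrophage UMIs 13 of 16 were. Siglecg, an inhibitory lectin, was at 2.42, 2.31 and 2.46 UMIs per 10000 in B cells and at 0, 0 and 0.00958 in T cells (log2 fold change 8.08 ± 0.46, adjusted p = 3.5e-10, edgeR). Cr2, the complement receptor CD21, was at 2.57, 1.36 and 1.06 against 0, 0.0496 and 0.0144. Against plasma cells 11 of 16 were higher and 1, Cd81, was lower, though not without TMM scaling. DESeq2 called 7 higher and 1 lower, beside 636 and 702 of all 7131 genes. Without the jejunum 9 were higher and 0 lower, beside 592 and 638 of 9197 genes. Without the duodenum 8 were higher and 1 lower, beside 548 and 651 of 7212 genes. Cd72 was at least 28.1-fold higher than a floor of 3 UMIs over all plasma cells. Against macrophages and dendritic cells 9 of 16 were higher and 2 lower, the latter being the inhibitory receptors Lair1 and Pirb.

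Of the transcription factors of B cells, 12 of 17 tested were higher than in T cells and none was lower. Mef2c, a factor of receptor-driven proliferation, was at 10.3, 9.23 and 9.07 UMIs per 10000 in B cells and at 0, 0 and 0.0192 in T cells, a log2 fold change of 9.09 ± 0.47 (adjusted p = 1.1e-10, edgeR). Pou2af1, the coactivator OBF-1, was at 2.13, 3.67 and 2.4 against 0, 0 and 0.0216. Bach2, which holds off the plasma cell state, had 1.76, 2.94 and 1.61 in B cells, 0.131, 0.0744 and 0.149 in T cells and 0, 0.0176 and 0.0666 in plasma cells.

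Against plasma cells 11 of the 17 factors were higher in B cells and 1, Klf2, was lower, though not without TMM scaling. Without the B cells that held germinal centre UMIs Klf2 was not called (log2 fold change -0.79, adjusted p = 0.13, edgeR) and Pou2af1 was the lower one (-1.53, adjusted p = 0.00038, edgeR). Pax5 and Spib had no UMI in plasma cells, which makes them at least 28.9-fold and at least 24.6-fold higher in B cells. Against macrophages and dendritic cells 12 of 17 were higher and Irf8 and Spi1 lower, the call of Irf8 being lost with at most 20000 UMIs per cell (log2 fold change -0.54). Spi1, which encodes the myeloid and B cell factor PU.1, was at 1.47, 1.05 and 1.24 in B cells and 5.56, 4.89 and 6.31 in macrophages and dendritic cells (log2 fold change -2.35 ± 0.38, adjusted p = 8.8e-05, edgeR). Ikzf3, the lymphoid factor Aiolos, was at 1.83, 1.68 and 1.68 against 0, 0.201 and 0.00706.

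MHC class II genes were expressed in B cells of all 3 libraries. H2-Aa, the alpha chain of I-A, was at 23.5, 39.7 and 32.7 UMIs per 10000 in B cells, 0.131, 0 and 1.63 in T cells, 0.135, 0.0705 and 4.76 in plasma cells, and 69.4, 61.3 and 96.4 in macrophages and dendritic cells. B cells lay between plasma cells and macrophages and dendritic cells in each library. Cd74, the invariant chain that guards the binding groove, followed at 90.9, 131 and 128 in B cells, with 0.197, 0.223 and 5.49 in T cells and 241, 198 and 310 in macrophages and dendritic cells.

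All 11 genes of the MHC class II list were higher in B cells than in T cells, with a median log2 fold change of 5.69. H2-Ab1, the beta chain of I-A, was at 16.9, 27.3 and 26.3 against 0.263, 0.149 and 1.53 (log2 fold change 5.69 ± 0.50, adjusted p = 3.1e-08, edgeR). Ciita, the coactivator that turns these genes on, was at 1.98, 2.1 and 2.11 against 0.0657, 0 and 0.0934 (log2 fold change 4.84 ± 0.37, adjusted p = 5.1e-09, edgeR). In T cells the ileum was the highest library for H2-Aa, H2-Ab1, H2-Eb1 and Cd74.

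Against plasma cells 9 of 11 were higher, without a call for Cd74 and Ctss, the cathepsin that trims Cd74. In edgeR's test the log2 fold change was 4.19 ± 0.76 for H2-Aa (adjusted p = 0.00035) and 1.92 ± 0.41 for H2-Ab1 (adjusted p = 0.0017), and both calls were lost without the library as a block (2.81 and 1.30). H2-Oa had no UMI in plasma cells and was at least 30.4-fold higher in B cells.

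Against macrophages and dendritic cells the list divided. H2-Ab1 (log2 fold change -1.48 ± 0.45, adjusted p = 0.019), H2-Eb1 (-1.27 ± 0.44, adjusted p = 0.041), H2-DMb1 (adjusted p = 0.00072, at 1.47, 1.89 and 1.16 UMIs per 10000 against 5.13, 3.41 and 5.67) and Ctss (-1.52 ± 0.25, adjusted p = 0.00011) were lower in B cells by edgeR's test. H2-Ob, the beta chain of H2-O, which restrains peptide loading by H2-M, was at 4.4, 4.19 and 2.91 in B cells and 0.869, 0.803 and 1.38 in macrophages and dendritic cells, and was the member called higher (log2 fold change 1.54 ± 0.52, adjusted p = 0.037, edgeR). The other 6 were not called, among them H2-Aa (-0.81 ± 0.74, adjusted p = 0.5, edgeR) and H2-DMb2, a beta chain of H2-M, at 3.88, 5.45 and 4.59 against 2.35, 2.34 and 3.01. DESeq2 lost the calls of H2-Ab1 (-1.47), H2-Eb1 (-1.23), H2-DMb1 (-1.65) and H2-Ob (2.15), and the fit without the library as a block those of H2-Ab1 (-1.96), H2-Eb1 (-1.72) and H2-Ob (1.44). Leaving out the duodenum, whose B cells, T cells and plasma cells share the fit, lost that of H2-Ob (1.33), and leaving out TMM scaling those of H2-Ab1 (-1.23) and H2-Eb1 (-1.02). Without the B cells that held germinal centre UMIs H2-Eb1 was not called either (-1.13, adjusted p = 0.059, edgeR). The jejunal macrophages and dendritic cells held T cell marker UMIs at 93.0 per 10000, against 1.74 and 2.55 in the duodenum and the ileum. Without the cells that held UMIs of 6 T cell genes, 15 jejunal and 57 ileal cells were left, and 589 genes were higher and 939 lower in B cells.

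**Figure D2:**
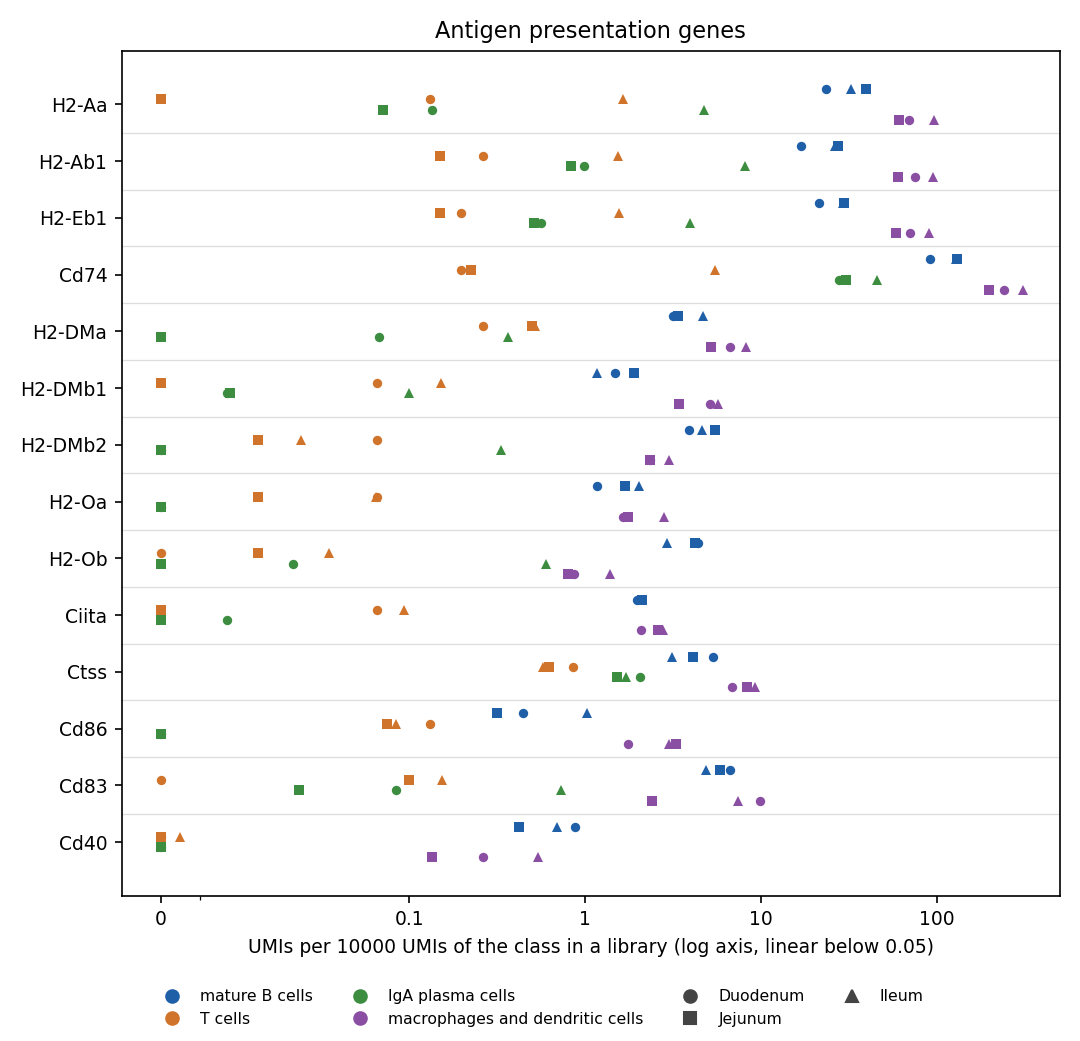
UMIs per 10000 UMIs of the class (x axis, logarithmic and linear below 0.05) of 14 antigen presentation genes, with a colour for each class and a symbol for each library. Mature B cells (blue) lie above T cells (orange) and below macrophages and dendritic cells (purple) for H2-Aa, H2-Ab1, H2-Eb1 and Cd74, and above both for H2-Ob, where B cells reach 2.91 to 4.4. The duodenal macrophages and dendritic cells, 9 cells, are drawn but were not tested.

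The promoters of MHC class II genes share short boxes upstream of the start site, among them a Y box with an inverted CCAAT core. Since 11 of 11 genes of the list were higher than in T cells, stretches of their promoters are shown for the genes in which the letters CTGATTGG were found, searched on both strands from 250 bases before to 50 after the start in RefSeq promoters of GRCm38.p6. The letters were in 1346 of 32851 promoters of that length (4.1%) and in 3 of the 8 class II genes of the table, and no other motif was searched. Promoters of a single chromosome were left out of the search, and the remaining genes of the list were not searched. The lines run 5′ to 3′ on the strand of the gene with the letters in capitals.
H2-Aa, chr17:34287804-34287934, minus strand: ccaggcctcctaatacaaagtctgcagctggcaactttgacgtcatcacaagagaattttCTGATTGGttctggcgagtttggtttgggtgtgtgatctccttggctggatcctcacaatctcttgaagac
H2-Eb1, chr17:34305745-34305886, plus strand: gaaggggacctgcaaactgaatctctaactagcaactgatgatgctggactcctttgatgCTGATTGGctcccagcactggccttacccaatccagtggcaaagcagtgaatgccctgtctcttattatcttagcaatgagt
H2-Oa, chr17:34092273-34092398, plus strand: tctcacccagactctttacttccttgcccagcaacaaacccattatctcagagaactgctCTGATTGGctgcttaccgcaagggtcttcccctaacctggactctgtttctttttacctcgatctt
The capitals begin 51 bases before the start of H2-Aa, 62 before that of H2-Eb1 and 46 before that of H2-Oa. A match is a description of the letters and not of binding in these cells. H2-Eb1 was at 21.5, 29.5 and 29.2 UMIs per 10000 in B cells, with 0.197, 0.149 and 1.55 in T cells, and H2-Oa at 1.17, 1.68 and 2.03, with 0.0657, 0.0248 and 0.0647 in T cells.

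Co-stimulation completes antigen presentation. All 5 co-stimulation genes tested of the list of 7 were higher in B cells than in T cells. Of all genes tested 11.1% were higher. With the ileum left out 4 could be tested, of which 2 were higher, beside 420 of all 4230 genes tested. Cd83, which stabilises MHC class II at the surface, was at 6.67, 5.87 and 4.87 UMIs per 10000 in B cells and 0, 0.0992 and 0.153 in T cells (log2 fold change 5.99 ± 0.55, adjusted p = 5.7e-08, edgeR). Cd86, the ligand of CD28, was at 0.44, 0.314 and 1.02 against 0.131, 0.0744 and 0.0838 in T cells (log2 fold change 3.38 ± 0.39, adjusted p = 2.9e-06, edgeR), a call that was lost without the ileum (1.88). In macrophages and dendritic cells Cd86 was at 1.74, 3.28 and 3.0, so that B cells were lower (log2 fold change -2.14 ± 0.33, adjusted p = 9.5e-05, edgeR). Cd40, the receptor for T cell help, was at 0.88, 0.419 and 0.691 in B cells and 0.261, 0.134 and 0.536 in macrophages and dendritic cells, with overlap and no call (adjusted p = 0.69, edgeR).

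Among survival and cytokine receptors, 5 of 15 were higher in B cells than in T cells (4 without the B cells that held macrophage UMIs), 2 lower and 8 not called. Of all genes tested 11.1% were higher and 10.5% lower. With the ileum left out 3 of 14 were higher and 2 lower, beside 420 and 376 of all 4230 genes tested. Tnfrsf13c, the BAFF receptor on which mature B cells depend, was at 2.71, 4.19 and 4.1 UMIs per 10000 in B cells and 0, 0 and 0.0311 in T cells (log2 fold change 7.36 ± 0.38, adjusted p = 1.1e-10, edgeR). It also exceeded plasma cells, at 0.354, 0.388 and 0.799 (log2 fold change 1.19 ± 0.26, adjusted p = 0.002, edgeR), a call lost with at least 20 cells per sum (1.13). Tnfrsf17, the receptor BCMA of plasma cells, had no UMI in B cells and 1.6, 1.59 and 2.73 in plasma cells, at least 181-fold lower in B cells. Bcl2, an inhibitor of apoptosis, was at 1.47, 0.629 and 0.926 in B cells and 5.32, 10.5 and 6.62 in T cells (log2 fold change -2.67 ± 0.35, adjusted p = 7.5e-06, edgeR). Mcl1, of the same family, did not differ in level from T cells beyond its error (log2 fold change 0.19 ± 0.23) and was lower than in macrophages and dendritic cells (-1.36 ± 0.25, adjusted p = 0.00041, edgeR).

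Toll-like receptor sensing was represented by 5 tested genes of 10, of which 4 were higher in B cells than in T cells and Myd88 was not called. Cd180, a receptor relative that amplifies lipopolysaccharide signals, was at 1.32, 2.41 and 1.51 UMIs per 10000 in B cells and 0, 0 and 0.0168 in T cells (log2 fold change 6.69 ± 0.44, adjusted p = 1.4e-09, edgeR). Ly86, which encodes its partner MD-1, was at 3.0, 3.56 and 2.86 against 0, 0 and 0.0527. Unc93b1, the chaperone of endosomal receptors, was at 3.66, 3.04 and 3.07 against 0.0657, 0.149 and 0.213. For Cd180, Ly86 and Unc93b1 the lowest B cell library lay above the highest T cell library. How many of all genes tested did so is not given here.

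Receptors of homing and positioning went in both directions, where 11.1% of all genes tested were higher in B cells than in T cells and 10.5% lower. Of 16 tested, 7 were higher in B cells than in T cells, among them Ccr6, Cxcr5, Cxcr4, Ccr7, S1pr1 and Gpr183, 6 were lower (Itgal, Itgb2, Itgb7, Selplg, Ccr9 and Itgae) and 3 were not called. Cxcr5, which leads cells into follicles, was at 1.32, 0.839 and 0.801 UMIs per 10000 in B cells and 0.131, 0.0248 and 0.0407 in T cells (log2 fold change 4.30 ± 0.42, adjusted p = 3.2e-07, edgeR). Ccr7, which draws cells to the T cell zone, was at 3.0, 3.88 and 2.37 against 0.0657, 0.496 and 0.316 (log2 fold change 3.29 ± 0.53, adjusted p = 0.00011, edgeR). Ccr6, the receptor for Ccl20 of the follicle-associated epithelium, was at 0.44, 1.15 and 1.13 against 0, 0.0744 and 0.0287.

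Among the receptors lower in B cells, Itgae, the alpha E integrin that binds E-cadherin, was at 0, 0 and 0.0256 UMIs per 10000 in B cells and 4.14, 5.41 and 4.17 in T cells (log2 fold change -7.52 ± 0.47, adjusted p = 6.6e-10, edgeR). Ccr9, the receptor for Ccl25 of the small intestine, was at 0, 0 and 0.113 against 1.71, 4.17 and 3.23 (log2 fold change -4.61 ± 0.49, adjusted p = 5.1e-07, edgeR). Itgb7, the beta chain of the gut integrins, was at 0.147, 0.105 and 0.428 against 2.37, 3.3 and 2.81, whereas Itga4, its alpha partner, overlapped at 1.03, 1.68 and 1.54 against 0.657, 1.24 and 1.22 (log2 fold change 0.48 ± 0.26, adjusted p = 0.24, edgeR). Itga4 was called higher without the B cells that held germinal centre UMIs (0.85) and with only the 2 classes in the fit (0.53).

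Against plasma cells the homing receptors again went in both directions. Ccr7, Ccr6 and Cxcr5 had no UMI in plasma cells, which makes them at least 37.6-fold, 16.8-fold and 12.7-fold higher in B cells. Itgb7 was lower in B cells than in plasma cells, which had 0.557, 0.634 and 1.37 (log2 fold change -2.99 ± 0.35, adjusted p = 2.3e-06, edgeR). Ccr10, the receptor of IgA plasma cells for epithelial Ccl28, had 1 UMI in all B cells and 281 in plasma cells. In all, 7 of 16 were higher in B cells than in plasma cells and 6 lower (7 and 4 without TMM scaling), and 5 were higher and 5 lower than in macrophages and dendritic cells. Of all genes tested 11.6% were higher than in plasma cells and 11.4% lower (74.9% and 2.89% without TMM scaling). Against macrophages and dendritic cells 8.83% were higher and 14.4% lower.

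The plasma cell programme separated B cells from plasma cells. All 17 genes tested of the list of 20 were lower in B cells than in plasma cells, and without TMM scaling 16 of 17 were. Xbp1, the factor that expands the secretory pathway, was at 0.366, 0.734 and 0.75 UMIs per 10000 in B cells and 12.6, 10.9 and 12.6 in plasma cells (log2 fold change -5.87 ± 0.29, adjusted p = 4.7e-11, edgeR). Derl3, of endoplasmic reticulum degradation, was at 0.0733, 0.105 and 0.157 against 2.82, 3.7 and 4.0 (log2 fold change -6.32 ± 0.34, adjusted p = 8e-11, edgeR). Mzb1, the antibody chaperone of the reticulum, stood at 5.06, 5.98 and 5.99 in B cells, below plasma cells at 14.1, 22.6 and 23.8 and above T cells at 0, 0 and 0.0168. For Irf4, a dose-dependent switch of B cell fate, the call depended on the scaling, since the level in B cells (0.66, 0.524 and 0.534) overlapped that in plasma cells (0.557, 0.476 and 1.23) and the log2 fold change of -2.28 ± 0.35 with TMM (adjusted p = 6.1e-05, edgeR) was -0.67 and not called without it.

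Immediate early genes are induced within minutes by receptor signals and by tissue dissociation. Of 18 tested, 3 were higher than in T cells, 3 lower and 12 not called. Of all genes tested 11.1% were higher and 10.5% lower. Without the B cells that held germinal centre UMIs 6 were higher, Egr1 and Zfp36 among them, and 0 lower, Klf6, Dusp1 and Hspa1a not being called, where 7.87% of the 7125 genes tested were higher and 7.05% lower. Fos was at 1.39, 2.41 and 3.6 UMIs per 10000 in B cells, 1.38, 2.95 and 3.27 in T cells, 19.2, 15.9 and 11.1 in plasma cells and 32.7, 17.2 and 20.8 in macrophages and dendritic cells. B cells were lower in Fos than plasma cells (log2 fold change -4.40 ± 0.36, adjusted p = 2.5e-08) and than macrophages and dendritic cells (-3.00 ± 0.37, adjusted p = 4.5e-06) by edgeR's test. Of the 18 genes, 13 were lower than in plasma cells, where without TMM scaling 6 were lower and 6 higher, and 13 were lower than in macrophages and dendritic cells. Of all genes tested 11.4% were lower than in plasma cells, and without TMM scaling 2.89% were lower and 74.9% higher. Against macrophages and dendritic cells 14.4% were lower.

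Cells with germinal centre genes stood out within the B cells. Rgs13, a brake on chemokine receptor signals, was at 1.91, 0.839 and 1.83 UMIs per 10000 in B cells and 0, 0.174 and 0.0575 in T cells, without overlap (log2 fold change 4.68 ± 0.51, adjusted p = 5.7e-07, edgeR). Of the 12 genes of the germinal centre list 10 were higher in B cells than in T cells, 9 than in plasma cells and 8 than in macrophages and dendritic cells, and none was lower. Of all genes tested 11.1%, 11.6% and 8.83% were higher in the same order. With the ileum left out 7 could be tested against T cells, of which 5 were higher, beside 420 of all 4230 genes tested. To see how these UMIs were spread over cells, 6 genes of the list were counted in each cell, among them S1pr2, Mef2b, Rgs13, Gcsam and Mybl1. These 6 and the limit of 3 were chosen after their values were seen, so that what follows on these cells is a description without a test.

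In the ileum 330 of 431 B cells had none of the 6 genes, 25 had 1 and 3 had 2, while 5, 14, 21 and 33 cells had 3, 4, 5 and 6. Few cells thus lay near the limit, with 3 cells just below it and 5 at it. Cells with 3 or more numbered 73 (16.9%, 95% interval 13.5 to 20.8) in the ileum, 4 of 30 in the duodenum and 1 of 19 in the jejunum. None of the 915 ileal T cells had 3 and 1 had 2. The 73 cells were deep, with a median of 11917 UMIs against 3309 in cells without any of the genes, and gave 41.3% of all UMIs of ileal B cells. After thinning to 800 UMIs, 9 ileal B cells had 3 of the genes and 3 had 4, and no T cell had more than 1.

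**Figure D3:**
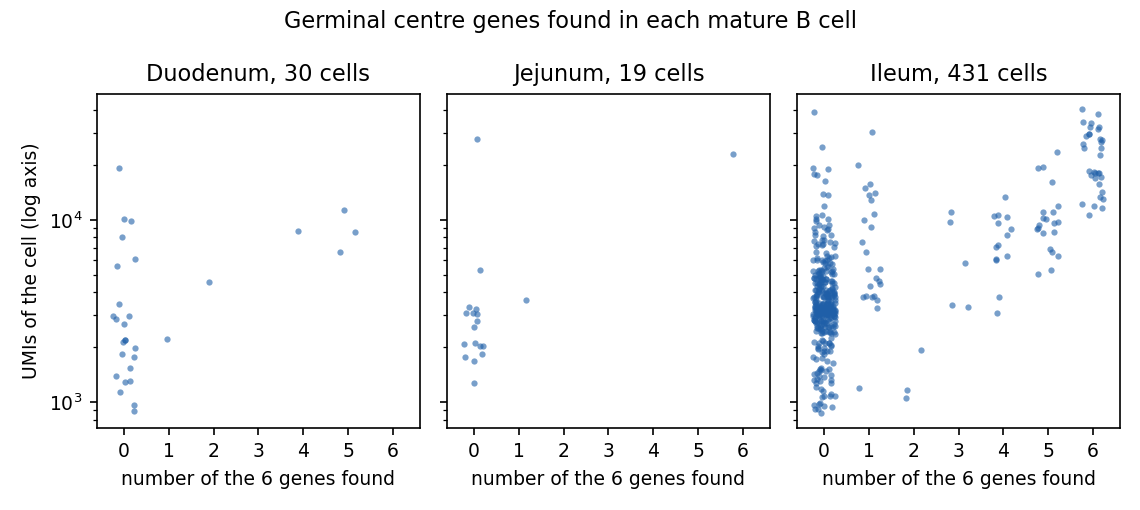
UMIs of each mature B cell (y axis, logarithmic) against the number of the 6 germinal centre genes found in it (x axis, points spread sideways), a panel for each library. In the ileum 330 cells sit at 0 and 73 at 3 or more, with medians of 3309 and 11917 UMIs, and 33 cells hold all 6 genes.

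Genes outside the choice differed between these ileal cells and those with none of the 6 genes. Of 8513 genes with at least 20 UMIs, 1316 were at least 2-fold higher and 1133 at least 2-fold lower in the cells with 3 or more. Basp1 had 11.2 (95% interval 10.6 to 11.9) against 0.332 (0.243 to 0.443) UMIs per 10000, Bcl6, the repressor that sets up the germinal centre, 1.27 (1.07 to 1.49) against 0.145 (0.0883 to 0.223), and Fas, the death receptor, 1.22 (1.02 to 1.44) against 0.137 (0.0827 to 0.214). Jchain, kept below 50 per 10000 by the choice of B cells, had 8.03 against 0.0723.

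Receptors and factors of resting follicular cells were low in the cells with 3 or more genes. Ccr7 had 0.0266 (0.00549 to 0.0778) UMIs per 10000 against 4.29 (3.95 to 4.64), Gpr183, the oxysterol receptor EBI2, 0.0443 against 3.15, Klf2, a factor of quiescence and egress, 0.133 against 7.37, and Cd38, low on mouse germinal centre cells, 0.071 against 2.12. At equal depth of 800 UMIs, Ccr7 was found in 0% against 29.7% of the cells and Klf2 in 0% against 40.3%, where the unthinned shares were 4.11% against 64.5% and 12.3% against 69.4%.

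Genes of B cell identity and antigen presentation were as follows. Ms4a1 had 12.3 against 7.78 UMIs per 10000, Pax5 1.69 against 2.02, Mef2c 8.41 against 9.87 and Tnfrsf13c 4.75 against 3.82. H2-Aa had 22.1 against 40.5 and Cd74 94.8 against 155. Bcl2 had 0.124 (0.0679 to 0.208) against 1.57 (1.37 to 1.79). Ms4a1 and Tnfrsf13c were higher in the cells with 3 or more genes, Mef2c, H2-Aa, Cd74 and Bcl2 were lower, and the counting intervals of Pax5 overlapped.

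Cell cycle genes went with the same cells. Mki67, of dividing cells, had 4.75 (4.35 to 5.16) UMIs per 10000 against 0.065 (0.0297 to 0.123), Stmn1 11.5 against 0.275 and Hmgb2 31.5 against 2.54. At 800 UMIs per cell Mki67 was found in 23.3% against 0% of the cells. At least 3 of 9 cycle genes were present in 42 of the 73 cells (57.5%, 95% interval 45.4 to 69.0), in 4 of the 330 (1.21%, 0.331 to 3.07) and in 8 of 915 ileal T cells, without thinning.

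This bears on the comparison of B cells with T cells. With all B cells, 18 of 20 cell cycle genes were higher than in T cells, 16 than in plasma cells and 17 than in macrophages and dendritic cells. Mki67 was at 2.71, 4.82 and 2.01 UMIs per 10000 in B cells and 0, 0.149 and 0.259 in T cells (log2 fold change 4.40 ± 0.77, adjusted p = 0.00018, edgeR). All 46 Mki67 UMIs of the jejunum came from the 1 cell with 6 germinal centre genes. Without the B cells that held any of the 6 genes, a setting added after the values were seen, 14 cell cycle genes could be tested, none was higher than in T cells and 1, Tyms, was lower, beside 7.87% and 7.05% of all genes tested. Against plasma cells 1 was then higher and 1 lower, beside 10.2% and 10.5% of all genes. Against macrophages and dendritic cells none was higher and 4 were lower, H2afz, Stmn1, Tyms and Birc5, beside 6.34% and 11.6%. Against T cells this setting gave Mki67 a log2 fold change of 0.34 ± 1.22 (adjusted p = 0.94, edgeR). Those of Stmn1 and Top2a against T cells were -0.90 ± 0.57 and -0.01 ± 0.76.

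Counts of other groups were also taken without these B cells, while T cells with UMIs of the 6 genes stayed in. All 11 MHC class II genes, 16 of 16 co-receptors, 11 of 17 transcription factors and 6 of 6 mature B cell markers were higher than in T cells, as were 561 of the 7125 genes tested (7.87%). Of 17 homing receptors 9 were higher and 5 lower, and the log2 fold change of Ccr7 was 4.07 ± 0.52 (adjusted p = 8.6e-06, edgeR). The 6 genes that marked the cells left out belong to the germinal centre list, so its fall was largely set by that choice and is a description only. Of 5 genes left of the germinal centre list 1, Basp1, was higher. The log2 fold change of Bcl6 was -0.26 ± 0.51 (adjusted p = 0.86, edgeR), where it was 1.51 ± 0.42 (adjusted p = 0.011, edgeR) with all B cells and overlapped between the classes. DESeq2 did not call Bcl6 with all B cells (0.97).

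Heavy chain constant genes divided the B cells by class. A cell was given the class of the gene with more than 50% of its heavy chain UMIs where that gene had 3 or more, a rule chosen after values were seen. Cells with equal Ighm and Ighd UMIs were thus without a class. In the ileum 250 of 431 cells (58.0%, 95% interval 53.2 to 62.7) were of class Ighm, 13 of Ighd, 47 (10.9%, 8.12 to 14.2) of Ighg2b, 58 (13.5%, 10.4 to 17.0) of Igha, 5 of Ighg1, 1 of Ighg3 and 57 without a class. With a limit of 80% of heavy chain UMIs in place of 50%, class Ighm took 32.5%, Ighg2b 6.26% and Igha 10.2%. None was of Ighe or Ighg2c, which by the limit of 3 cells in 431 allows up to 0.696% each. In the duodenum 19 of 30 and in the jejunum 14 of 19 were of class Ighm.

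T cells gave the background of this assignment. They were chosen to have no Cd79a or Cd79b UMI, which can lower their immunoglobulin UMIs and so this background. By the same rule 65 of 915 ileal T cells (7.1%) came out as Ighm, 9 (0.984%) as Igha and none as Ighg2b, at median depths of 4017 UMIs in T cells and 3780 in B cells. An Ighm UMI was found in 75.0% of all B cells and 30.6% of all T cells, and after thinning in 57.5% and 10.2%. Ighg2b was at 3.81, 0.734 and 4.32 UMIs per 10000 in B cells of the 3 libraries and 0, 0 and 0.0192 in T cells.

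The heavy chain class went with the germinal centre genes. Of the 73 ileal cells with 3 or more of the 6 genes, 38 (52.1%, 95% interval 40 to 63.9) were of class Ighg2b, 28 (38.4%, 27.2 to 50.5) of Igha, 3 of Ighg1 and 1 of Ighm. Of the 330 cells with none, 234 (70.9%, 65.7 to 75.8) were of class Ighm, 12 of Ighd, 25 (7.58%, 4.96 to 11.0) of Igha and 7 (2.12%, 0.857 to 4.32) of Ighg2b. The 4 duodenal cells with 3 or more genes had 2 of Ighg2b, 1 of Ighg1 and 1 of Ighm, and the 1 jejunal cell was of Igha. The intervals of Ighm, Ighg2b and Igha did not overlap between the ileal sets. At 800 UMIs per cell an Ighg2b UMI was found in 50.7% against 3.94% and an Ighm UMI in 4.11% against 68.2% of the cells.

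**Figure D4:**
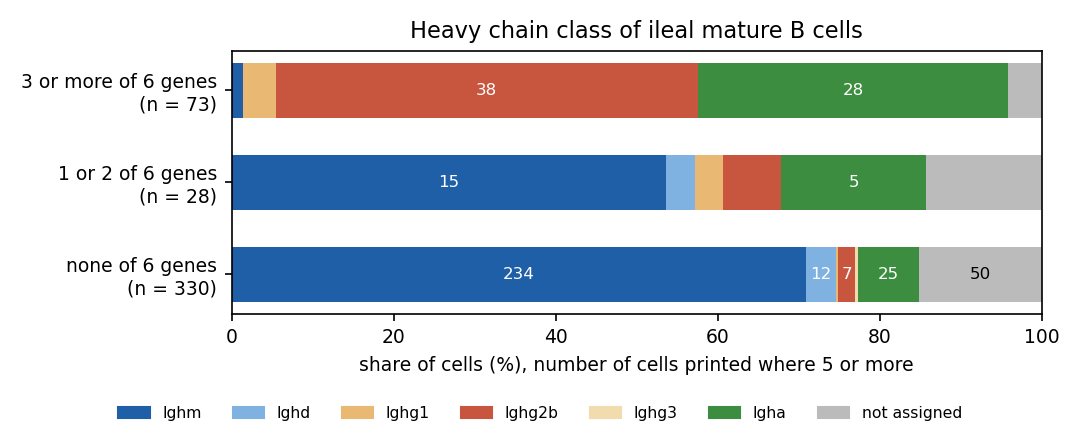
Share of ileal mature B cells of each heavy chain class (x axis, percent) for cells with none, 1 or 2, and 3 or more of the 6 germinal centre genes, with the number of cells printed where it is 5 or more. Ighm holds 70.9% of the 330 cells with none, and Ighg2b and Igha hold 52.1% and 38.4% of the 73 cells with 3 or more.

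Light chains were read from Igkc, the kappa constant gene, and from Iglc1, Iglc2 and Iglc3 of the lambda locus. Igkc was at 50.1, 54.9 and 55.8 UMIs per 10000 in B cells, 1.51, 2.13 and 0.623 in T cells and 3934, 3853 and 3903 in plasma cells. B cells were higher than T cells (log2 fold change 5.59 ± 0.41, adjusted p = 3.4e-09, edgeR) and lower than plasma cells (-7.81 ± 0.44, adjusted p = 1.4e-10, edgeR). Of 480 B cells 450 had at least 5 light chain UMIs, and no T cell had. The choice of T cells without Cd79a and Cd79b UMIs can lower their light chain UMIs.

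A cell was called kappa where Igkc made up at least 80% of its light chain UMIs, lambda at 20% or less and mixed between. Kappa numbered 229 of 450 cells (50.9%, 95% interval 46.2 to 55.6), lambda 32 (7.11%, 4.91 to 9.89) and mixed 189 (42.0%, 37.4 to 46.7). The lambda share was 4.37% without the B cells that held germinal centre UMIs. Lambda cells, held to few Igkc UMIs by the rule, had one in 15 of 32 and at most 7 in a cell. Kappa and mixed cells ran into each other, and at limits of 90% and 10% the mixed share was 74.4% and the kappa share 19.1%.

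The lambda UMIs of kappa cells came from all 3 constant genes. Iglc2 was found in 79.0% of kappa cells, Iglc3 in 73.8% and Iglc1 in 35.4%, with medians of 2, 2 and 0 UMIs beside 35 of Igkc. In lambda cells Iglc2 had 42.4 UMIs per 10000 and Iglc3 12.3, in kappa cells 4.05 and 3.73. In ileal T cells, chosen without Cd79a and Cd79b UMIs, 42 of 915 held a UMI of Iglc2 or Iglc3. Iglc2 and Iglc3 are near-identical copies, and how their reads were divided is uncertain here.

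**Figure D5:**
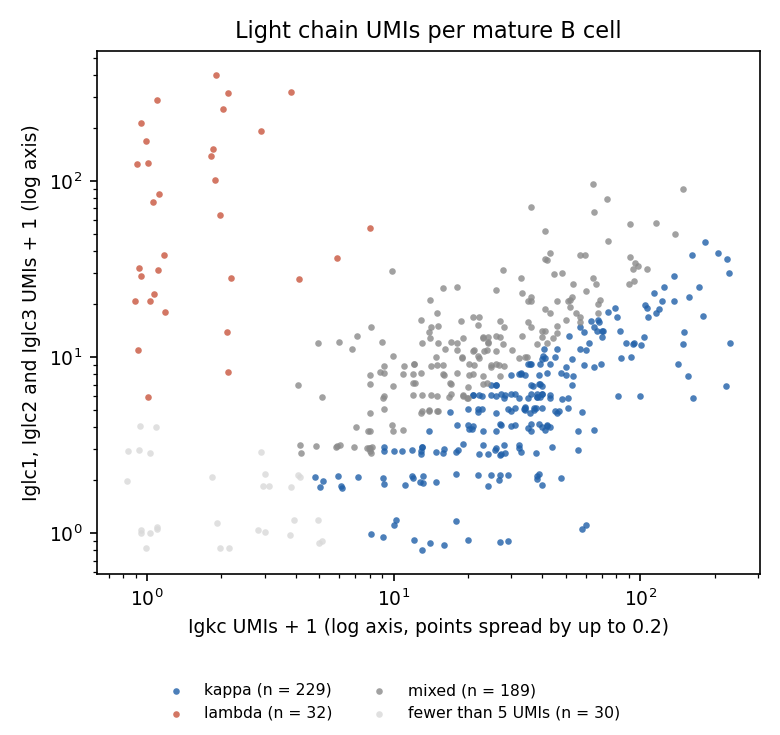
Lambda constant UMIs (Iglc1, Iglc2 and Iglc3, y axis) against Igkc UMIs (x axis) of each mature B cell, both plus 1 on logarithmic axes, coloured by light chain class. The 32 lambda cells (red) lie at the left with at most 7 Igkc UMIs, while the 229 kappa cells (blue) and 189 mixed cells (grey) form a continuous cloud.

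Variable segments were counted in few B cells. An Ighv UMI was found in 39 of 480 B cells, an Igkv UMI in 70 and an Iglv UMI in 40, against 67, 69 and 66 of 74 plasma cells and 5, 2 and 0 of 1052 T cells. The libraries were primed at the 3′ end, far from these segments, and clones were not read. Why few B cells held such UMIs was not tested.

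Between segments, levels in B cells are given without a test. Among 9034 genes with at least 20 UMIs over all B cells, 52 (0.576%) were at least 2-fold higher in the ileum than in both other segments and 172 (1.9%) at least 2-fold lower, with 31 and 8 beyond their counting intervals. Genes higher in the ileum numbered 32 with enterocyte genes below 0.5% of a cell's UMIs and 17 with at most 20000 UMIs per cell, and genes lower there 52 with at least 50 UMIs per gene. No gene of the lists of mature B cell markers, co-receptors, transcription factors, MHC class II, homing or the germinal centre was among them. The B cell genes that were are Cd86 and Eaf2, a germinal centre and plasma cell gene, and the cycle gene Rrm2, all higher in the ileum, and Pik3cd and Tlr1, lower. Rrm2 was at 0.22, 0.314 and 0.97 UMIs per 10000 and Eaf2 at 0.22, 0.314 and 0.889, both from 3 UMIs each in the duodenum and the jejunum.

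The 10 leading genes higher in ileal B cells are known from the epithelium. Fabp6, the ileal bile acid-binding protein, was at 33.1 UMIs per 10000 in ileal B cells and had no UMI in the other segments' B cells, at least 105-fold lower there by a floor of 3 UMIs in each, while ileal T cells had 36.8. Fcgbp, of goblet cell mucus, was at 0.66, 0.21 and 6.26 in B cells and 0.263, 0.868 and 15.3 in T cells. A single ileal B cell held 1244 of the 1712 Fcgbp UMIs, and without it the ileal level was 1.72. Apoa4, one of the genes that chose the cells, was at 9.45, 8.18 and 1.77 in B cells and 14.0, 13.0 and 1.59 in T cells. Of the 52 genes 26 were past the same fold in T cells, and of the 172 genes 7 were. Goblet cell UMIs reached 10 in 13 ileal B cells, which held 2778 of 4312 such UMIs with 2272 in 1 cell, and in 25 ileal T cells, and their part in these values was not tested.

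Apoe, among the 10 genes most above T cells by the rule used for naming genes, varied most between libraries, with 61.3, 6.71 and 12.4 UMIs per 10000 in B cells of the 3 libraries and at most 0.0657 in T cells. It is abundant in macrophages. Without the 4 B cells that held at least 10 macrophage UMIs its log2 fold change against T cells was 8.33 ± 1.30 (adjusted p = 2e-05, edgeR), beside 9.16 ± 1.57 (adjusted p = 0.00015, edgeR) with them. Vpreb3, a relative of the surrogate light chain, was another of the 10, at 3.15, 5.45 and 4.91 in B cells and 0, 0 and 0.00958 in T cells.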

How the data were processed

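RNA of single cells was measured with the 10x Genomics 3′ kit. The authors counted UMIs per gene and barcode with Cell Ranger 3.0.2 on GRCm38 (mm10), and deposited them as unnormalized whole counts over 31053 genes. The members, gene lists and tests were chosen with earlier results of these data known. Totals per library were 98518847 (duodenum), 87656078 (jejunum) and 78074516 (ileum) UMIs. Antigen-presenting cells of the myeloid class had at least 3 UMIs over Csf1r, C1qa, C1qb, C1qc, Itgax, Xcr1, Clec9a and Flt3, T cells at least 3 over Cd3d, Cd3e and Cd3g with Cd3e among them, and plasma cells at least 50 Jchain UMIs per 10000 and Igha, all within the limits used for B cells on UMIs, mitochondrial share and enterocyte genes. T and myeloid cells had no Cd79a or Cd79b UMI and fewer than 50 Jchain UMIs per 10000, and plasma and myeloid cells no Cd3e UMI. No doublet caller was run. Alternatives without B cells holding T cell receptor, macrophage or germinal centre UMIs, and with at most 20000 UMIs, were run in its place. They do not identify doublets as such, and no setting left out B cells for their goblet cell UMIs.

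UMIs were summed per library and class of at least 10 cells and fitted in 1 model in edgeR 4.0.16 (R 4.3.3; filterByExpr, TMM scaling, the library blocked, quasi-likelihood test, adjustment after Benjamini and Hochberg over 7131 genes, threshold 0.05). The code was tested on simulated counts. Levels and shares have exact Poisson and binomial intervals (95%; Python 3.11.15, numpy 2.4.6, scipy 1.17.1), and cells were thinned to 800 UMIs. Named are list genes and, per comparison and direction, the 10 largest changes with the same sign in every library and at least 50 UMIs. Alternatives covered DESeq2 1.42.0, scaling, filters, the block, cell rules and each library left out. Some genes of the lists are counted in these results but not reported here by name.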

Additional observations from a re-analysis of the deposited data

Results flagged for a closer look

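Outside the limits on UMIs and mitochondrial share, 11 barcodes met every other condition of a B cell, 3 in the duodenum, none in the jejunum and 8 in the ileum. They were noticed because B cell transcripts were counted in barcodes that no comparison used. Of the 11, 7 had over 40% mitochondrial UMIs, 3 had fewer than 800 UMIs and 1 had more than 50000.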

How the results depend on the processing

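Of 2410 values of the 131 gene comparisons named, 2360 kept direction and side of the threshold under the alternatives, 36 lost a call, 11 gained one and 3 reversed. The reversed ones are Bcl6 (-0.26), Stmn1 (-0.90) and Top2a (-0.01) against T cells without B cells holding germinal centre UMIs, an alternative chosen after seeing the data, as were those on macrophage UMIs, on T cell UMIs in macrophages and dendritic cells and on heavy chain limits. B cell shares were 2.21%, 1.51% and 6.1% with at most 20% mitochondrial UMIs, and 4.54% in the ileum without T cell receptor UMIs. Limits of 90% and 10% gave 19.1% kappa and 74.4% mixed, and leaving out germinal centre UMIs gave 4.37% lambda. Genes higher in the ileum were 32 with enterocyte genes below 0.5% and 17 with at most 20000 UMIs per cell, and genes lower there 52 with at least 50 UMIs. Cells with 3 or more germinal centre genes were 13.3% with Jchain below 10 per 10000 and 13.4% with at most 20000 UMIs. Class Ighm took 70.9% without germinal centre UMIs, 48.5% at 5 or more UMIs and 32.5% at 80% of heavy chain UMIs, class Ighg2b 2.12% and 6.26% in the first and the last of these, and Igha 7.58% and 10.2%. With at most 20000 UMIs per cell fewer genes could be tested, and 435 were higher and 407 lower than in T cells, 292 and 263 than in plasma cells, and 363 and 514 than in macrophages and dendritic cells. DESeq2 called 488 lower than in T cells and 371 higher than in macrophages and dendritic cells, where the fit without the block gave 389 higher and that of the 2 classes alone 392 higher and 610 lower. Without TMM scaling 5343 were higher and 206 lower than in plasma cells. Leaving out a library gave 420 to 791 higher and 376 to 703 lower than in T cells, lowest without the ileum, 548 to 592 higher and 629 to 651 lower than in plasma cells, and, without the duodenum, 636 higher and 1030 lower than in macrophages and dendritic cells. That comparison could not be run without the jejunum, without the ileum or with at least 20 cells per sum, which leaves 1 sum. The cause of these shifts was not tested. No test between segments was possible because each segment has 1 library, while classes were compared within libraries, with the library as a block. The number of B cells limits the duodenum and the jejunum, where finding no cell with a UMI, by the limit of 3 cells in the total, still allows shares of up to 10.0% and 15.8% of the B cells.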

Other observations

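Genes of marginal zone and B-1 cells gave no common direction in B cells. Of 9 tested, 2 were higher and 4 lower than in T cells, beside 11.1% and 10.5% of all genes tested. Bhlhe41, a factor of B-1a cells, was at least 42.5-fold higher. Cd5, a surface marker shared by B-1a and T cells, was without a UMI in B cells and at least 60.1-fold lower. Cd9 was at 0.0733, 0 and 0.0878 UMIs per 10000 in B cells of the duodenum, the jejunum and the ileum and 0.329, 0.372 and 0.378 in T cells (log2 fold change -2.21 ± 0.44, adjusted p = 0.00069, edgeR), a call lost without the ileum (-2.76).

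Of 6 memory genes tested, 5 were higher in B cells than in T cells, among them Cd38 at 1.83, 1.78 and 1.18 UMIs per 10000 against 0.723, 1.04 and 0.941 (log2 fold change 0.73 ± 0.25, adjusted p = 0.038, edgeR). Of all genes tested 11.1% were higher and 10.5% lower. Without the B cells that held germinal centre UMIs 4 of the 6 were higher and 1, Nt5e, was lower (-1.72, adjusted p = 0.021, edgeR), with Cd38 at 1.43, and DESeq2 called 3 higher. With the ileum left out 5 memory genes could be tested, of which 3 were higher and 1 lower than in T cells, beside 420 and 376 of all 4230 genes tested. Of the interferon response genes 2 of 10 were higher (Ifit3 and Ifi27l2a), 4 lower (among them Zbp1, Rtp4 and Isg15) and 4 not called against T cells. Without the B cells that held germinal centre UMIs 3 were higher and 1 lower, beside 7.87% and 7.05% of all genes, with Zbp1, Rtp4 and Isg15 not called, and DESeq2 called 0 higher and 1 lower, where it called 609 and 488 of all 7131.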
